A study of Mus musculus with 11 samples.

Results

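The 10 genes described here encode receptors for sphingosine-1-phosphate (S1P), an exporter of S1P from endothelial cells (ECs), and enzymes that make or remove it. They were chosen by name as *S1pr1*, *S1pr2*, *S1pr3*, *Spns2*, *Sphk1*, *Sphk2*, *Sgpl1*, *Sgpp1*, *Plpp1* and *Plpp3*, and all 10 were found among the 29307 genes of the count table. RNA-sequencing counts came from hepatic sinusoidal ECs of 6 conventionally raised (CONV-R) and 5 germ-free (GF) mice, 1 library per mouse. All were male C57BL/6J mice without a genetic modification, aged 10 to 12 weeks, drawn from the same colonies and fed the same standard diet. CONV-R mice carried a specific-pathogen-free microbiota, and GF mice had been raised without microbes. The ECs were enriched with beads against CD146 and then sorted as cells positive for CD31, CD105 and CD146, and the RNA was amplified before library preparation. The authors report that GF livers yielded fewer sorted ECs and less RNA than CONV-R livers, and that viability after sorting was low. This difference in yield cannot be told apart from that in microbial status.

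S1P is a lipid mediator that circulates in blood and lymph and holds endothelial junctions together through G protein-coupled receptors. S1PR1 couples to Gi and activates Rac1, whereas S1PR2 and S1PR3 also couple to Gq and to G12/13 and activate RhoA. Sphingosine, released from ceramide by ceramidases, is phosphorylated by the sphingosine kinases SPHK1 and SPHK2, and SPNS2 carries S1P out of ECs. Inside the cell S1P is cleaved irreversibly by the lyase SGPL1 or returned to sphingosine by SGPP1. The membrane phosphatases PLPP1 and PLPP3 dephosphorylate S1P and lysophosphatidic acid, a related lipid mediator, outside the cell. In sinusoidal ECs, the fenestrated ECs that line the blood spaces of the liver, S1PR1 is known for its part in keeping the vessel wall intact and quiescent.

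The libraries were sequenced as single reads of 50 bases, so the receptor transcripts were first compared for stretches that could share a read. None of the 45 pairs among the 10 genes had a 50-base stretch in common in their GENCODE M21 transcripts. Even the coding windows most like each other differed at 10 bases for *S1pr1* and *S1pr2*, 10 bases for *S1pr1* and *S1pr3*, and 12 bases for *S1pr2* and *S1pr3*. The *S1pr1* window nearest to *S1pr2*, from chr3:115712393-115712442 on the minus strand of GRCm38, is shown with the *S1pr2* window at chr9:20968016-20968065 on the minus strand and the *S1pr3* window at chr13:51419271-51419320 on the plus strand. All lie within a single coding exon, are written 5′ to 3′, and have in capitals the bases that differ from *S1pr1*.
S1pr1: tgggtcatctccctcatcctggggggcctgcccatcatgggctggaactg
S1pr2: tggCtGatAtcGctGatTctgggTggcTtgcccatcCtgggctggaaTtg
S1pr3: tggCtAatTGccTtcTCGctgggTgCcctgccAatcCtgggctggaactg
In these windows *S1pr2* differed from *S1pr1* at 10 bases and *S1pr3* at 12. The most similar coding windows of the other enzyme pairs were also shown for *Plpp1* with *Plpp3*, which differed at 11 bases, and for *Sphk1* with *Sphk2*, which differed at 10. Each of these windows spans an exon junction and has in capitals the bases that differ from the first gene of its pair.
Plpp1: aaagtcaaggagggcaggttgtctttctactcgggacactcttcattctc
Plpp3: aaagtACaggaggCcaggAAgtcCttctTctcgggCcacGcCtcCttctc
Sphk1: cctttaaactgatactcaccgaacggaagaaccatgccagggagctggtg
Sphk2: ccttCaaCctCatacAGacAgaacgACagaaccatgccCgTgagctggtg

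Total counts per library lay between 7242717 and 16164588, with a median of 12057336. Values are given as CPM, the counts brought to a common library size with TMM factors, and a Log2FC is GF minus CONV-R. Of the 12905 genes with enough counts for edgeR's quasi-likelihood test, 965 had a Benjamini-Hochberg adjusted p (p.adjust) under 0.05, which was 7.48% of those tested. The 620 higher genes were 4.80% and the 345 lower genes 2.67%. CPM did not overlap between the groups for 5.59% of the tested genes. None of 12 EC markers passed the test in edgeR, DESeq2 or voom, while 5 had an unadjusted p under 0.05 in edgeR, all with a Log2FC above 0, beside 2968 (23.0%) of all tested genes. These were *Lyve1* (Log2FC 0.63, from 812 to 1257 CPM), *Pecam1* (0.46), *Mcam* (0.37), *Stab1* (0.33) and *Cdh5* (0.33). Over the 12 markers 8 had a Log2FC above 0, with a median of 0.19, and *Stab2*, a scavenger receptor of sinusoidal ECs, had mean levels of 7482 and 7523 CPM. Markers of Kupffer cells, the resident macrophages of the liver, were higher in GF libraries for 7 of 10 genes tested, and their CPM summed to 86.0 to 222 in CONV-R and 197 to 931 in GF libraries. Every value is from a sorted population, in which a change in the number of cells of one type and a change in RNA per cell cannot be told apart.

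*S1pr1* was the only member that passed the test, as 1 of 8 tested, beside 7.48% of all tested genes. Its level was 131 to 154 CPM in the CONV-R libraries, with a median of 149, and 540, 469, 528, 358 and 513 CPM in GF replicates 1, 2, 4, 5 and 6. Every GF library was above every CONV-R library, and the lowest GF value was that of replicate 5. The group means were 146 ± 8.03 CPM (SD, n = 6) and 482 ± 74.1 CPM (SD, n = 5). This gave a Log2FC of 1.72 (standard error 0.11, edgeR p.adjust = 1.1e-07), a fold of 3.29 with a 95% interval of 2.80 to 3.88. *S1pr1* lies at chr3:115710433-115715072 on the minus strand of GRCm38, has 2 exons, and overlaps the exons of no other annotated gene. With each library left out in turn its Log2FC stayed between 1.68 and 1.81. On GRCm38, the other receptor genes lie at chr9:20962361-20976781 (*S1pr2*) and chr13:51408639-51422797 (*S1pr3*), and the exporter *Spns2* at chr11:72451638-72489904. The kinases lie at chr11:116530925-116536674 (*Sphk1*) and chr7:45709467-45718002 (*Sphk2*), and the intracellular enzymes of removal at chr10:61098642-61147703 (*Sgpl1*) and chr12:75714249-75735729 (*Sgpp1*). The membrane phosphatases lie at chr13:112800792-112867894 (*Plpp1*) and chr4:105157347-105232764 (*Plpp3*).

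*S1pr2*, the receptor known to oppose *S1pr1* on endothelial junctions, had 4.10 to 6.62 CPM in CONV-R libraries with a median of 5.13. It had 3.96, 3.86, 7.05, 5.42 and 3.26 CPM in GF replicates 1, 2, 4, 5 and 6. The groups overlapped, with the highest and the lowest level both in GF libraries. The Log2FC was -0.14 (standard error 0.26, edgeR p.adjust = 0.805), and the 95% interval of the fold ran from 0.616 to 1.34. *S1pr3* had too few counts for the test, with 44 counts in all CONV-R libraries and 35 in all GF libraries. Its level was 0.0776 to 1.37 CPM in CONV-R libraries, with a median of 0.485, and 0.195, 1.74, 0.381, 0.397 and 0.949 CPM in GF replicates 1, 2, 4, 5 and 6. The difference in mean CPM was 0.133 (two-sided exact permutation test, p = 0.675), so that no difference was detectable at this depth for *S1pr3*, whereas the interval of *S1pr2* ended below the fold of *S1pr1*.

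**Figure D1:**
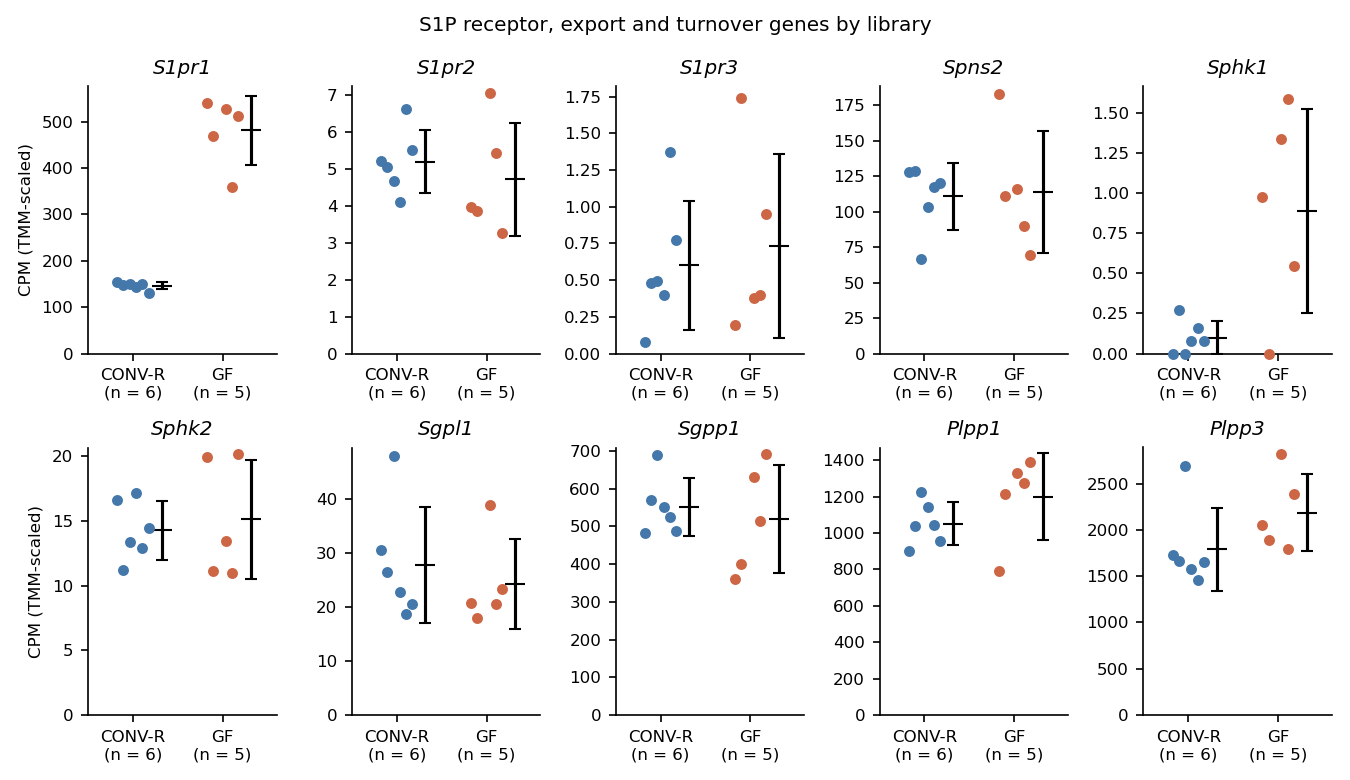
TMM-scaled CPM (vertical axes, each from 0) of the 10 genes in each of the 6 CONV-R and 5 GF libraries (points), with the mean and SD beside them, cut off at 0. The GF points lie above all CONV-R points for *S1pr1* (358 to 540 against 131 to 154 CPM) and overlap them for the other 9 genes.

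*Spns2*, the exporter, was at 66.9 to 128 CPM in CONV-R libraries with a median of 119, and at 183, 111, 116, 89.6 and 69.7 CPM in GF replicates 1, 2, 4, 5 and 6. GF replicate 1 was the highest of all libraries and CONV-R replicate 3 the lowest, so the groups overlapped. The Log2FC was 0.04 (standard error 0.21, edgeR p.adjust = 0.937), and the 95% interval of the fold ran from 0.760 to 1.39. Its exons share 131 bases (3.21%) with those of *Mybbp1a* on the other strand, and the strand setting of the counting is not given in the sources used here.

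The sphingosine kinases were weakly expressed. *Sphk1* had 0, 4, 0, 1, 2 and 1 counts in CONV-R replicates 1 to 6, and 15, 0, 14, 12 and 4 counts in GF replicates 1, 2, 4, 5 and 6. Of the GF libraries, 3 had 12 to 15 counts, while replicate 2 had none, so the groups overlapped. Mean levels were 0.0988 ± 0.105 CPM (SD, n = 6) in CONV-R ECs and 0.887 ± 0.633 CPM (SD, n = 5) in GF ECs. A two-sided exact permutation test of the mean CPM, used because the gene had too few counts for edgeR's filter, gave p = 0.0303. Without GF replicate 1, 4, 5 or 6 the exact permutation test gave p = 0.0667. Without the filter, edgeR gave a Log2FC of 2.96 and p.adjust = 0.0741, whereas DESeq2 gave 3.10 and 0.0331, so the call depended on the test. A count of 3 corresponds to 0.195 to 0.407 CPM in these libraries. The Kupffer cell markers of GF replicates 1, 2, 4, 5 and 6 summed to 288, 357, 197, 212 and 931 CPM, and their part in the *Sphk1* difference was not tested.

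*Sphk2* had 11.2 to 17.2 CPM in CONV-R libraries with a median of 13.9. In GF replicates 1, 2, 4, 5 and 6 it had 19.9, 11.1, 13.4, 10.97 and 20.2 CPM. The GF libraries fell on both sides of the CONV-R range, and the Log2FC was 0.08 (standard error 0.20, edgeR p.adjust = 0.852, 95% interval of the fold 0.787 to 1.43). Its exons share 539 bases (13.0%) with *Dbp* and 373 bases (8.97%) with *Rpl18*, both on the other strand, and those of *Sphk1* share 192 bases (4.02%) with the antisense gene *Gm29292*.

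Neither of the intracellular enzymes that remove S1P passed the test. *Sgpl1*, the lyase, had 18.7 to 47.9 CPM in CONV-R libraries with a median of 24.7, and 20.8, 17.9, 38.9, 20.5 and 23.3 CPM in GF replicates 1, 2, 4, 5 and 6. One library of each group, CONV-R replicate 3 and GF replicate 4, stood above the rest. The Log2FC was -0.19 (standard error 0.24, edgeR p.adjust = 0.696), with a 95% interval of the fold from 0.612 to 1.25. *Sgpp1*, the S1P phosphatase, was far more abundant, at 483 to 690 CPM in CONV-R libraries with a median of 539. Its GF levels were 361, 399, 631, 514 and 693 CPM in replicates 1, 2, 4, 5 and 6, which spanned more than the CONV-R range on either side. The Log2FC was -0.09 (standard error 0.16, edgeR p.adjust = 0.794), and the 95% interval of the fold was 0.749 to 1.18.

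The membrane phosphatases had the highest CPM of the 10 genes. *Plpp1* had 902 to 1227 CPM in CONV-R libraries with a median of 1043, and 790, 1215, 1328, 1273 and 1391 CPM in GF replicates 1, 2, 4, 5 and 6. GF replicate 1 was the lowest of all libraries and 3 GF libraries were above every CONV-R library. The Log2FC was 0.19 (standard error 0.13, edgeR p.adjust = 0.427), and the 95% interval of the fold ran from 0.938 to 1.39. Of the exon bases of *Plpp1*, 452 (25.8%) are shared with *Mtrex* on the other strand, a gene with a mean of 79.1 CPM. *Plpp3* had 1458 to 2688 CPM in CONV-R libraries with a median of 1657, and 2055, 1888, 2816, 1790 and 2385 CPM in GF replicates 1, 2, 4, 5 and 6. All GF libraries were above all CONV-R libraries except replicate 3, which at 2688 CPM was higher than 4 of the 5 GF libraries. The Log2FC was 0.29 (standard error 0.16, edgeR p.adjust = 0.284), with a 95% interval of the fold from 0.972 to 1.53. Without CONV-R replicate 3 the Log2FC of *Plpp3* was 0.44 with an edgeR p.adjust of 0.0344, so this library decided whether *Plpp3* was called. CONV-R replicate 3 also had the highest *Sgpl1*, *Sgpp1* and *Plpp1* and the lowest *Spns2* of its group, and with 7922855 counts the lowest total of its group.

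Levels of different genes were compared as CPM per kb of merged exon length. In CONV-R ECs *Plpp1* (601 ± 68.0 CPM per kb, SD, n = 6) and *Plpp3* (568 ± 142) came first, with overlapping ranges. *Sgpp1* (97.6 ± 13.4), *S1pr1* (48.0 ± 2.64) and *Spns2* (27.1 ± 5.70) followed without overlap between neighbours. *Sgpl1* (4.53 ± 1.74) and *Sphk2* (3.44 ± 0.55) overlapped each other, and *S1pr2* (0.651 ± 0.107), *S1pr3* (0.134 ± 0.0986) and *Sphk1* (0.0207 ± 0.0219) came last, the latter pair with overlap. In GF ECs *S1pr1* stood above *Sgpp1* by its mean, with 158 ± 24.3 against 92.0 ± 25.4 CPM per kb (SD, n = 5). The ranges of these neighbours overlapped (118 to 177 against 63.9 to 123), but between different libraries. Within each GF library *S1pr1* was above *Sgpp1*. Among the 12883 tested genes with an annotated length, *S1pr1* ranked 605 by its mean CPM per kb in CONV-R ECs and 128 in GF ECs. *Plpp1* ranked 17 and 16, *Plpp3* 18 and 15, *Sgpp1* 216 and 268, and *Spns2* 1334 in both groups.

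**Figure D2:**
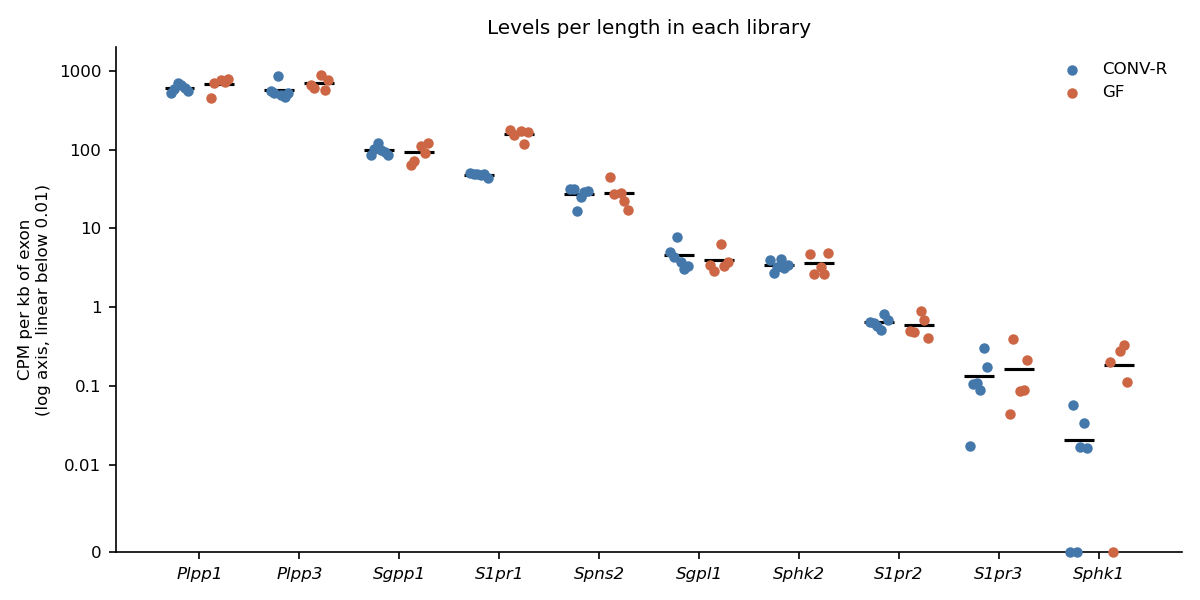
CPM per kb of merged exon (vertical axis, logarithmic above 0.01 and linear below) for each gene, ordered by the CONV-R mean, in CONV-R (blue) and GF (orange) libraries, with a line at each group mean. *S1pr1* is the gene whose GF points (118 to 177) leave the CONV-R points (43.2 to 50.7) and reach or exceed the range of *Sgpp1*.

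Each gene was then compared with its relative inside the same library, as the log2 ratio of CPM + 0.5, for 6 pairs. The *S1pr1* to *S1pr2* ratio was 4.70 ± 0.22 (SD, n = 6) on the log2 scale in CONV-R and 6.56 ± 0.51 (SD, n = 5) in GF libraries, without overlap. The difference was 1.86 (two-sided exact permutation test, p = 0.00433, which is the smallest p that 5 against 6 libraries allow, and 0.0260 after Benjamini-Hochberg adjustment over the 6 pairs). The *S1pr1* to *S1pr3* ratio was 7.15 ± 0.59 in CONV-R and 8.73 ± 0.73 in GF libraries, with overlap. Its difference was 1.58 (exact permutation p = 0.00866, adjusted 0.0260), and it rests on the few counts of *S1pr3*: with a pseudocount of 0.1 CPM the adjusted p was 0.113. Without GF replicate 1, 4, 5 or 6, the adjusted p of both *S1pr1* ratios was 0.0571 (exact permutation test), and the call was lost. For *S1pr1* to *S1pr2* the unadjusted p was then 0.00952, the smallest that 4 against 6 libraries allow, with differences of 1.73 to 2.02. For *S1pr1* to *S1pr3* it was 0.0190. The *Sphk1* to *Sphk2* ratio differed by 1.02 (exact permutation p = 0.0346, adjusted 0.0693), with 3 GF libraries above every CONV-R library. This value moved with the pseudocount, to 0.39 with 2 CPM (adjusted exact permutation p = 0.3203) and to 1.93 with 0.1 CPM (adjusted 0.113).

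The other 3 ratios overlapped widely. The *S1pr2* to *S1pr3* ratio differed by -0.28 (exact permutation p = 0.528, adjusted 0.634), the *Sgpl1* to *Sgpp1* ratio by -0.05 (exact permutation p = 0.779, adjusted 0.779) and the *Plpp1* to *Plpp3* ratio by -0.13 (exact permutation p = 0.528, adjusted 0.634). The *Plpp1* to *Plpp3* ratio lay between -1.13 and -0.46 on the log2 scale in CONV-R libraries and between -1.38 and -0.49 in GF libraries.

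**Figure D3:**
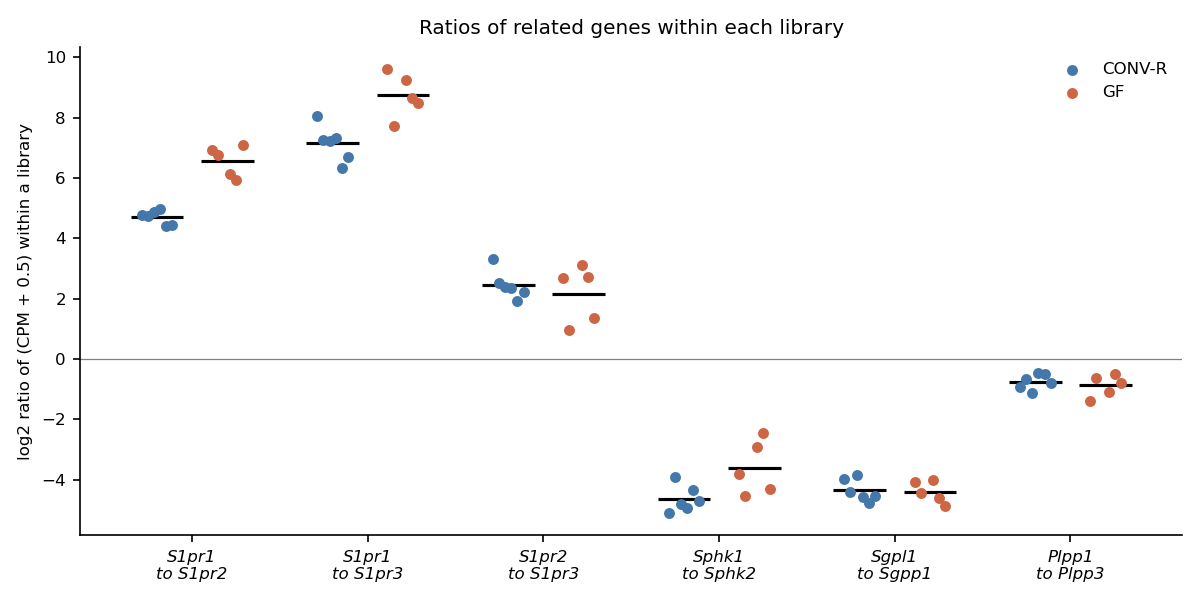
Log2 ratio of CPM + 0.5 of 2 related genes within each library (vertical axis), for 6 pairs, in CONV-R (blue, n = 6) and GF (orange, n = 5) libraries, with a line at each group mean. The groups are apart only for *S1pr1* to *S1pr2* (4.41 to 4.97 against 5.92 to 7.10).

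A wider list of 22 genes around S1P held further transporters, carriers, ceramidases and the lysophosphatidic acid branch, of which 14 could be tested. Of these, 4 were higher and 1 was lower in GF ECs (beside 4.80% and 2.67% of all tested genes), and the median Log2FC of the 14 was 0.12 against -0.01 for all tested genes. *S1pr4* and *Lpar6* were not analysed here, and *S1pr5*, with 20 counts in CONV-R and 9 in GF libraries, *Apom*, *Acer1*, *Lpar2*, *Lpar3* and *Lpar5* had too few counts. Among transporters, *Abcg2*, an efflux pump, rose from 50.7 ± 8.43 to 168 ± 51.7 CPM (Log2FC 1.73, edgeR p.adjust = 1.25e-05), with 36.3 to 59.7 CPM in CONV-R and 116 to 248 CPM in GF libraries. *Abca1*, which loads cholesterol and phospholipid onto apolipoprotein A-I, rose from 96.4 ± 23.4 to 193 ± 30.2 CPM (Log2FC 1.00, edgeR p.adjust = 0.00102). *Abcc1*, a transporter that can also export S1P, had a Log2FC of -0.21 (edgeR p.adjust = 0.372) and *Mfsd2b*, the exporter of red cells and platelets, one of -0.56 (edgeR p.adjust = 0.443). In the same libraries the Kupffer cell markers summed to 86.0 to 222 CPM (CONV-R) and 197 to 931 CPM (GF), and their part in the differences of these relatives and of the ceramidases and *Enpp2* was not tested.

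Ceramidases release the sphingosine that the kinases use, and 4 of them were tested. Of these, 1 was higher and 1 was lower in GF ECs, beside 4.80% and 2.67% of all tested genes. The others did not pass. *Acer2*, the ceramidase of the Golgi, rose from 520 ± 50.2 CPM in CONV-R to 1368 ± 256 CPM in GF ECs, with ranges of 464 to 603 and 1126 to 1734 CPM (Log2FC 1.40, standard error 0.12, edgeR p.adjust = 2.75e-06). *Acer3*, an alkaline ceramidase of the endoplasmic reticulum and Golgi, fell from 302 ± 25.6 to 211 ± 39.8 CPM, with ranges of 259 to 329 and 144 to 248 CPM (Log2FC -0.52, edgeR p.adjust = 0.0197). Neither gene overlapped between the groups, beside 5.59% of all tested genes without overlap. The lysosomal *Asah1* (Log2FC -0.05, edgeR p.adjust = 0.869) and the surface enzyme *Asah2* (-0.20, edgeR p.adjust = 0.414) did not pass. *Aldh3a2*, which oxidizes the aldehyde that the lyase releases, had a Log2FC of -0.04 (edgeR p.adjust = 0.895).

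In the lysophosphatidic acid branch, *Enpp2*, the gene of autotaxin, passed the test with few counts, 32 in all CONV-R and 124 in all GF libraries. Its levels were 0.418 ± 0.438 and 2.66 ± 1.95 CPM with overlap (Log2FC 2.59, edgeR p.adjust = 0.0428). In 9 of 16 alternative settings its p.adjust was above 0.05, at up to 0.0950, among them the removal of CONV-R replicate 3 or of GF replicate 5. *Lpar4*, with 7.17 ± 2.51 and 5.54 ± 1.43 CPM, and *Lpar1*, with 1.12 ± 0.355 and 1.82 ± 1.08 CPM, did not pass, nor did *Plpp2* (Log2FC 1.82, edgeR p.adjust = 0.132) or *Sgpp2* (Log2FC 0.27, edgeR p.adjust = 0.808).

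A second list held 24 tested genes of signalling, desensitization and transcriptional control of the receptors. Of these, 3 were higher and 1 was lower in GF ECs, beside 4.80% and 2.67% of all tested genes. The median Log2FC was 0.23, with 19 of 24 above 0, beside -0.01 and 49.1% over all tested genes. The Kupffer cell markers were higher in the same GF libraries (sums of 197 to 931 against 86.0 to 222 CPM), and their part in these differences was not tested. *Klf2*, the shear-responsive transcription factor that is known to activate *S1pr1*, had 126 to 236 CPM in CONV-R libraries with a median of 157. It had 263, 258, 369, 384 and 366 CPM in GF replicates 1, 2, 4, 5 and 6. All GF libraries were above all CONV-R libraries (Log2FC 0.96, standard error 0.16, edgeR p.adjust = 0.0015). GF replicate 5, which had the highest *Klf2* level, had the lowest *S1pr1* level of its group. The part of *Klf2* in the *S1pr1* difference was not tested. *Stat3*, another transcription factor reported to act on *S1pr1*, rose from 97.5 ± 10.3 to 138 ± 20.4 CPM (Log2FC 0.50, edgeR p.adjust = 0.0149), whereas *Foxo1* had a Log2FC of 0.11 (edgeR p.adjust = 0.646).

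Among the G protein subunits and small GTPases, *Rhoa* rose from 72.5 ± 7.57 to 117 ± 22.7 CPM (Log2FC 0.69, edgeR p.adjust = 0.00422). *Tiam1*, an exchange factor that activates Rac1, fell from 144 ± 21.2 to 69.6 ± 38.7 CPM with overlap (Log2FC -1.05, edgeR p.adjust = 0.0236), and edgeR's p.adjust was 0.0525 without CONV-R replicate 2 and 0.0612 without GF replicate 2. *Rac1* itself had 602 ± 79.5 and 776 ± 157 CPM (Log2FC 0.37, edgeR p.adjust = 0.108). The 7 G protein alpha subunits had Log2FC values from 0.02 (*Gnaq*) to 0.67 (*Gnai1*), and none passed in edgeR, DESeq2 or voom, while 4 of the 7 had an unadjusted p under 0.05 in edgeR, beside 23.0% of all tested genes. Among the genes that switch off or remove the receptor, *Arrb2* had a Log2FC of -0.65 (edgeR p.adjust = 0.0892, but 0.0108 without the filter on low counts and 0.0485 in DESeq2), *Grk5* of 0.50 (0.134), *Arrb1* of 0.37 (0.176) and *Adrbk1*, the older symbol of *Grk2*, of 0.31 (0.231). *Cd69*, whose product removes S1PR1 from the surface of lymphocytes, had 2.12 ± 2.41 and 1.39 ± 1.33 CPM (Log2FC -0.63, edgeR p.adjust = 0.670). Without GF replicate 5, 7 genes of this list passed rather than 4, with *Rac1*, *Akt1* and *Arrb2* added, while the share of all tested genes that passed went from 7.48% to 9.62%.

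**Figure D4:**
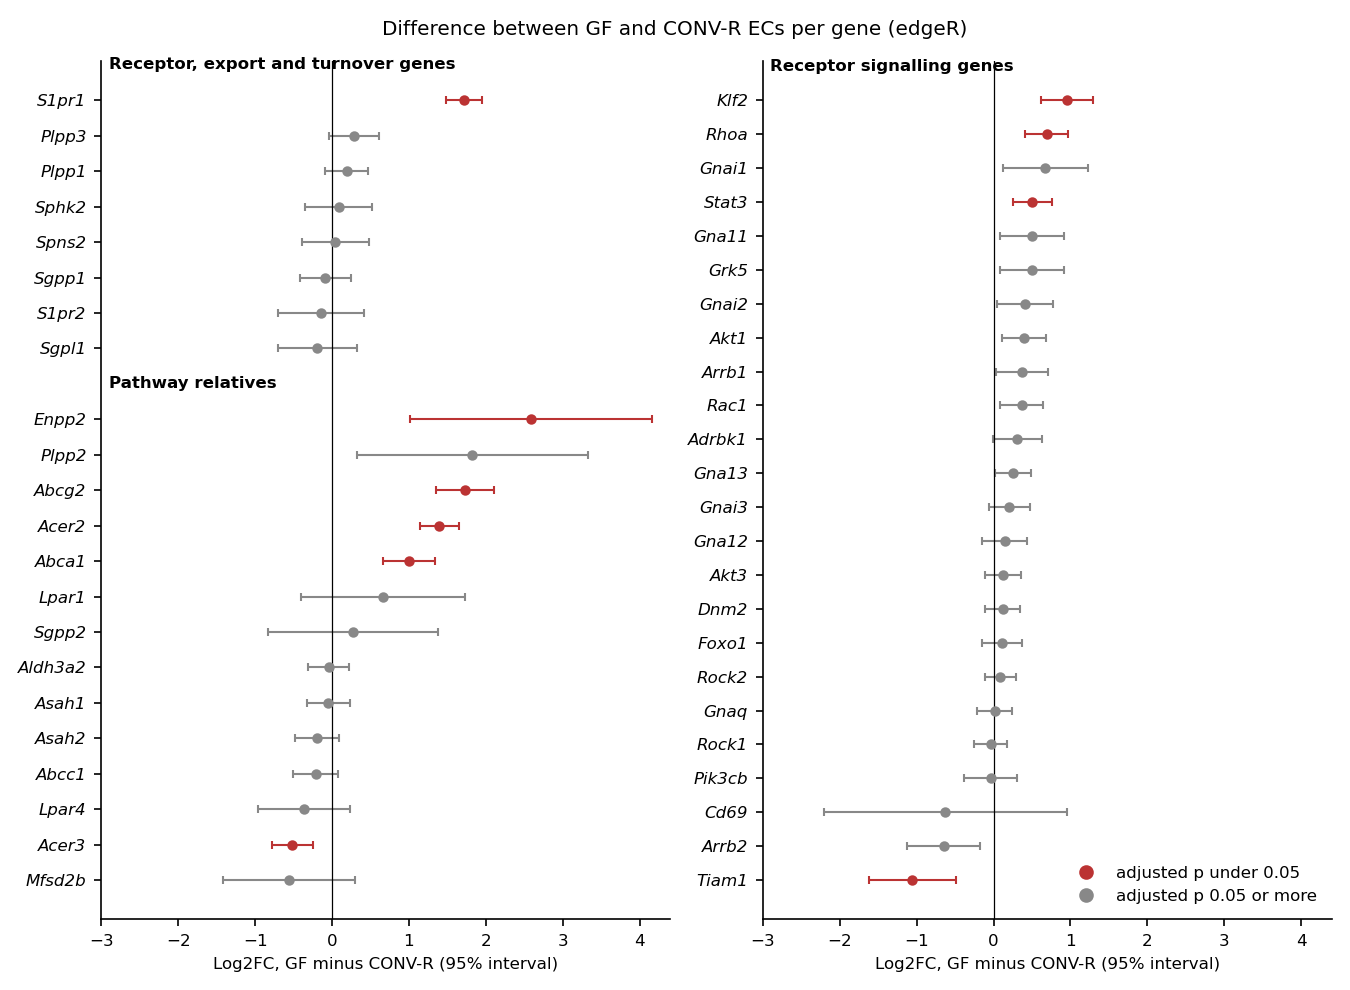
Log2FC of GF against CONV-R ECs with its 95% interval (horizontal axis) for the 8 tested receptor, export and turnover genes, 14 pathway relatives and 24 receptor signalling genes, in red where the adjusted p was under 0.05. *S1pr1* (1.72) is the only red point of the first list, and *Enpp2* (2.59), *Abcg2* (1.73), *Acer2* (1.40), *Abca1* (1.00) and *Acer3* (-0.52) are those of the second.

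The genes whose log2 CPM followed that of *S1pr1* most closely over the 11 libraries were *Sgms1* (Pearson r 0.98), a sphingomyelin synthase, *Lipa* (0.98), the lysosomal acid lipase, *Klf9* (0.98), a transcription factor, *Ndrg1* (0.98) and *Acer2* (0.97). These points share the division into GF and CONV-R libraries, and within groups the values were less alike. Within the CONV-R libraries r was 0.20, 0.39, 0.65, -0.17 and 0.16 for the 5 genes in this order, and within the GF libraries 0.69, 0.93, 0.72, 0.84 and 0.52. Among the other 7 tested members, r with *S1pr1* over the 11 libraries ran from 0.55 for *Plpp3* to -0.30 for *S1pr2*, and it was not computed for *Sphk1* and *S1pr3*.

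In the set of RefSeq promoter sequences used (GRCm38.p6, a window around each transcription start), 13 windows were found for 8 of the 10 genes. This set held none under the names *S1pr1* and *Plpp1*. The KLF motif CACCC, searched on both strands, occurred in 9 of the 13 windows, of *Plpp3*, *S1pr2*, *S1pr3*, *Sphk1* and *Sphk2*, beside 57.5% of 32851 promoters. The glucocorticoid receptor hexamer AGAACA occurred in 2 windows (*Plpp3* and *Sgpp1*), beside 19.0% of all, and its full palindrome in none. The STAT motif TTCNNNGAA occurred in 2 windows, both of *Sphk1*, beside 8.30% of all.

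The highest sum of the 10 Kupffer cell markers was that of GF replicate 6. The 7 that passed were *Clec4f*, *Vsig4*, *Timd4*, *Adgre1*, *Csf1r*, *C1qb* and *C1qc*, and all 10 had a Log2FC above 0 with a median of 1.55. The group ranges of the sum overlapped. CONV-R replicates 1 and 6, at sums of 222 and 196 CPM, had 154 and 131 CPM of *S1pr1*, and GF replicates 4, 5, 1, 2 and 6, at sums of 197, 212, 288, 357 and 931 CPM, had 528, 358, 540, 469 and 513 CPM. The part of the Kupffer cell markers in the *S1pr1* difference was not tested. No gene of the other marker lists passed in edgeR, while an unadjusted p under 0.05, which 23.0% of all tested genes had, was found for 1 of 7 tested hepatocyte, 1 of 3 stellate cell, 3 of 5 B cell, 2 of 7 platelet and erythroid and 1 of 2 lymphatic EC markers. Those of the hepatocyte and lymphatic EC lists were higher in GF libraries, and those of the stellate cell, B cell, and platelet and erythroid lists lower. None of the 5 B cell markers had a Log2FC above 0, and their median was -1.06. Among the stellate cell markers, DESeq2 and voom each called 1, in DESeq2 *Lrat*. Hepatocyte markers summed to 26.8 to 62.9 CPM in CONV-R and 33.3 to 80.3 CPM in GF libraries, stellate cell markers to 46.9 to 87.2 and 53.5 to 86.6 CPM, and platelet and erythroid markers to 21.5 to 40.4 and 11.2 to 31.6 CPM. B cell markers summed to 13.1 to 30.7 CPM and 4.54 to 15.6 CPM, T and NK cell markers to 1.02 to 3.41 and 0.678 to 4.87 CPM, and neutrophil markers to 0.482 to 4.54 and 0.857 to 3.31 CPM. Of the lymphatic EC markers, *Pdpn* had 0 counts in CONV-R and 8 in GF libraries, *Ccl21a* had 1 and 0, *Prox1* had 8.08 and 9.43 CPM, and *Flt4*, which sinusoidal ECs also express, had 1539 and 2039 CPM.

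**Figure D5:**
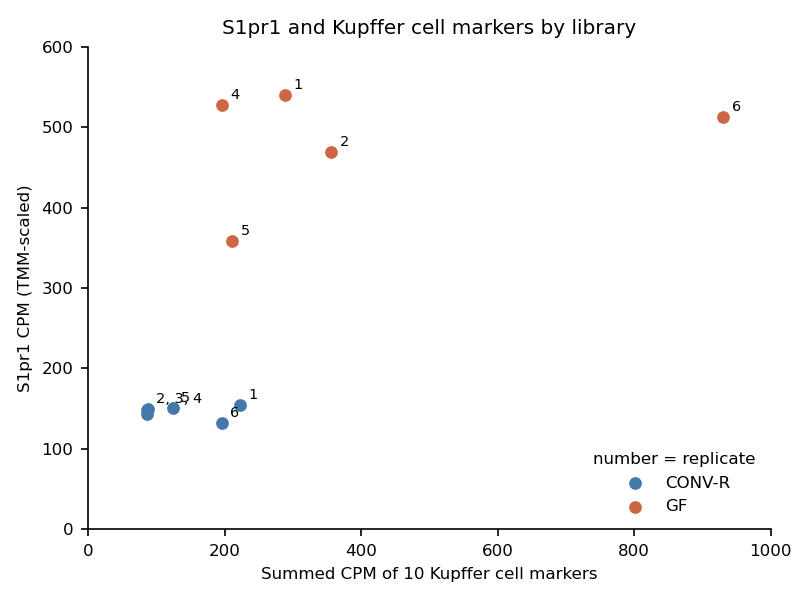
*S1pr1* CPM (vertical axis) against the summed CPM of 10 Kupffer cell markers (horizontal axis) in each library, numbered by replicate, for CONV-R (blue) and GF (orange). The marker sums run from 86.0 to 222 CPM in CONV-R and from 197 to 931 CPM in GF libraries, and *S1pr1* from 131 to 154 CPM and from 358 to 540 CPM.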

How the data were processed

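The authors deposited raw counts per gene, made by trimming the reads, mapping them with STAR to GRCm38 and counting them with featureCounts, and they left out 1 further GF library with fewer mapped reads. The annotation release and the strand setting of the counting are not given in the sources used here. A second deposited table of normalized values was not used. Counts of 11 libraries, grouped by the labels, were analysed in R 4.3.3 with edgeR 4.0.16 (filterByExpr, TMM, quasi-likelihood test, Benjamini-Hochberg adjustment over 12905 genes, threshold 0.05). Intervals of a fold used the moderated degrees of freedom. DESeq2 1.42.0 and voom of limma 3.58.1 were alternatives, beside other size factors, filters, counts drawn down to the lowest total, a replicate block and each library left out. Exact permutation tests ran over 462 splits with scipy, the two-sided p being the smaller tail doubled. Lengths, positions and exon overlaps came from GENCODE M21, to which 29081 of 29307 identifiers matched. All fits were tested on simulated data. The members and gene lists were chosen with earlier results of these data known. The named genes are all members, every listed gene that passed, and the 5 genes most like *S1pr1*, with others of the lists given for their role. The precision is limited by 5 and 6 mice and, under about 1 CPM, by counting error. Intervals of a fold come from the edgeR fit, whose dispersion includes the variation between mice of a group. The floors, set at 3 counts, cover counting error alone. The result of 1 marker gene is not reported here.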

Additional observations from a re-analysis of the deposited data

Results flagged for a closer look

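Each member's CPM and each log2 ratio was checked in each group for a library that stood apart from the others, by Dixon's criterion at 95%, in 32 groups of 5 or 6 values. Chance flags about 1 in 20 such groups, and 2 were found. *Sgpl1* was at 38.9 CPM in GF replicate 4, where the next highest GF library had 23.3 CPM. *Plpp3* was at 2688 CPM in CONV-R replicate 3, where the next highest CONV-R library had 1726 CPM.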

How the results depend on the processing

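*S1pr1* passed the test in the same direction under all 18 alternatives, with adjusted p values up to 1.54e-06. DESeq2 called 1527 of 15540 tested genes, beside 965 of 12905 in edgeR, and 956 were called by both. With each library left out 622 to 1260 genes were called, lowest without GF replicate 6 (622) and CONV-R replicate 4 (625). Members called numbered 2 of 10 with DESeq2, which tested *Sphk1* too, and 1 to 2 with each library left out. The higher number, 2 of 8, came without CONV-R replicate 3. Signalling genes called numbered 5 of 24 with DESeq2 and without the filter, *Arrb2* being added. The added calls with DESeq2 came with more calls among all genes. Without the filter 1134 genes were called, out of a larger tested set. Relatives called numbered 4 to 5 and signalling genes called 3 to 7 with each library left out. The 7 of 24 came without GF replicate 5, where 9.62% of all tested genes were called. Replicate numbers are shared between groups, but same-numbered libraries correlated in their deviations at 0.20, 0.05, -0.01, 0.02 and 0.09, and those numbered 1 and 6 alone matched best with their own number, so the pairing was not used. The replicate block leaves out CONV-R replicate 3, which has no GF partner. With it 1101 genes and 2 members were called, with *Plpp3* (Log2FC 0.42, adjusted p = 0.0306) and without *Enpp2* (adjusted p = 0.0639). The same libraries without the block gave 931 genes, also with *Plpp3* (0.44, adjusted p = 0.0344) and without *Enpp2* (adjusted p = 0.0575). Paired by number, the ratio differences were 1.89 for *S1pr1* to *S1pr2* and 1.598 for *S1pr1* to *S1pr3*, where 5 pairs allow no p under 0.0625. The difference of *S1pr1* to *S1pr3* was 1.502 with a pseudocount of 0.1 CPM. With each library left out, the ratio differences were 1.73 to 2.02 for *S1pr1* to *S1pr2*, 1.36 to 1.84 for *S1pr1* to *S1pr3* and 0.74 to 1.26 for *Sphk1* to *Sphk2*, and the CPM difference of *Sphk1* was 0.614 to 1.01. The loss of both *S1pr1* ratio calls without GF replicate 1, 4, 5 or 6 came with exact permutation p values of 0.00952 for *S1pr1* to *S1pr2*, the smallest that 4 against 6 libraries allow, and 0.0190 for *S1pr1* to *S1pr3*. Without GF replicate 2 both were at 0.00952 and the adjusted p was 0.0286. The *Sphk1* to *Sphk2* difference was 0.39 and 1.93 with pseudocounts of 2 and 0.1 CPM, without passing, and the ratio passed without CONV-R replicate 2 (adjusted p = 0.0317) or GF replicate 2 (0.0381).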
